A study of Mus musculus with 6 samples.

Results

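The genes described here are 59 protein-coding genes of mitosis, chosen by symbol: the kinases and cyclins that bring cells into mitosis, the kinetochore and spindle, the checkpoint that watches over chromosome attachment, and the machinery of chromosome condensation and cytokinesis. All 59 symbols were found among the 54532 genes of the deposited count table, and all 59 passed the filter on low counts. They were measured by poly(A) RNA sequencing in 2 groups of 3 libraries, both made from splenic CD4+ T cells of C57BL/6 mice held in a Th1-polarising culture for 72 h. The first group was cultured with idelalisib, which blocks the delta form of the lipid kinase PI3K, and the second without it. Neither its dose nor any solvent in the control cultures is stated in the sources used here. The labels call the libraries biological replicates without saying whether each is a mouse of its own, so a p-value here covers the spread among these libraries alone, and that spread may be technical. The series asks how the drug alters CD4+ T cell responses and by which regulation.

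Mitotic transcripts are made mostly late in the cell cycle. In resting cells the DREAM complex, which binds an element called the cell cycle genes homology region (CHR), holds their promoters silent. In dividing cells B-MYB and FOXM1 join the MuvB core of that complex and switch the same promoters on, together with the CCAAT-binding factor NF-Y. T cells are quiescent until they are stimulated and then divide rapidly, so these transcripts are widely read as a mark of cycling T cells. In bulk RNA, more dividing cells and more of a transcript per dividing cell cannot be told apart.

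Promoter windows of a few members are shown because both motifs were frequent in them. A RefSeq promoter (build GRCm38.p6, the same assembly as mm10) was found for 50 of the 59 genes, each running from 250 bases before to 50 bases after the annotated start. The hexamer TTTGAA, the core of the CHR, occurred on either strand in 35 of the 50 windows, or 70.0%, against 16.7% of 20316 windows of other genes. Within 50 bases of the start it occurred in 30 of 50, or 60.0%, against 4.09% of the others. The NF-Y box CCAAT occurred on either strand in 39 of 50, or 78.0%, against 38.1%, and both motifs occurred together in 30 of 50, or 60.0%, against 6.55%. In 1 case a match of one motif overlapped a match of the other. In the 39 windows found for 48 DNA replication genes, TTTGAA occurred in 6, or 15.4%, and CCAAT in 23, or 59%. These are matches of letters, not mapped binding sites, and forms of the CHR with other letters were not searched for.

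Of the 6 windows below, cut to 120 bases before and 30 bases after the start, chosen with the results known, the first 3 belong to genes that rose with idelalisib, the fourth to the gene that fell, and the last 2 to genes that did not pass the test. Capitals mark TTTGAA and CCAAT, or their reverse complements TTCAAA and ATTGG, and each sequence is written 5′ to 3′ on the strand of its gene.
Ccnb2 (chr9:70421525-70421674, minus strand): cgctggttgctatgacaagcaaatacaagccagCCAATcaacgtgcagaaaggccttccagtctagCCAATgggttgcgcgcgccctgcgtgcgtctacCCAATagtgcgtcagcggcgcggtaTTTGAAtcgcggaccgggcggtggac
Cdc20 (chr4:118437314-118437463, minus strand): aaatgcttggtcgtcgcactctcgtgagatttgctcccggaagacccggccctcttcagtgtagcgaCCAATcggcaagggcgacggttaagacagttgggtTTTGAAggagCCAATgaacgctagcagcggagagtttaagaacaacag
Spc25 (chr2:69206184-69206333, minus strand): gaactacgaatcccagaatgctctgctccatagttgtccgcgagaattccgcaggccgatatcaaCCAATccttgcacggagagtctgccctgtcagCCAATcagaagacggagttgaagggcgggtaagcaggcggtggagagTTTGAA
Cenpa (chr5:30666766-30666915, plus strand): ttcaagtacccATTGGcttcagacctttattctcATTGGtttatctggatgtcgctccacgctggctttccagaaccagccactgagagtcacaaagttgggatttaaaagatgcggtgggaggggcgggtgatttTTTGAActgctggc
Kif11 (chr19:37376262-37376411, plus strand): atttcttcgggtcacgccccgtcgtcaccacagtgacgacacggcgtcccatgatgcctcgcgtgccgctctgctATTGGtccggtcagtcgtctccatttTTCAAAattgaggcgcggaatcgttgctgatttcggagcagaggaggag
Cdc25b (chr2:131186828-131186977, plus strand): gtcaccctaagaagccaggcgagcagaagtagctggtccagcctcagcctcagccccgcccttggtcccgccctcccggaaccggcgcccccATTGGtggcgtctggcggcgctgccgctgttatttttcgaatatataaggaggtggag
The windows of Ccnb2, Cdc20 and Spc25 each hold TTTGAA near the start and a CCAAT upstream of it. The window of Cenpa, which fell, and that of Kif11, which did not pass the test, hold both motifs as well. Cdc25b, also not called, has a single NF-Y box and no TTTGAA in this window. The window does hold TTCGAA, a hexamer that was not searched for. Among members called higher, 30 of 40 windows held TTTGAA, and among the other members 5 of 10 did.

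**Figure D1:**
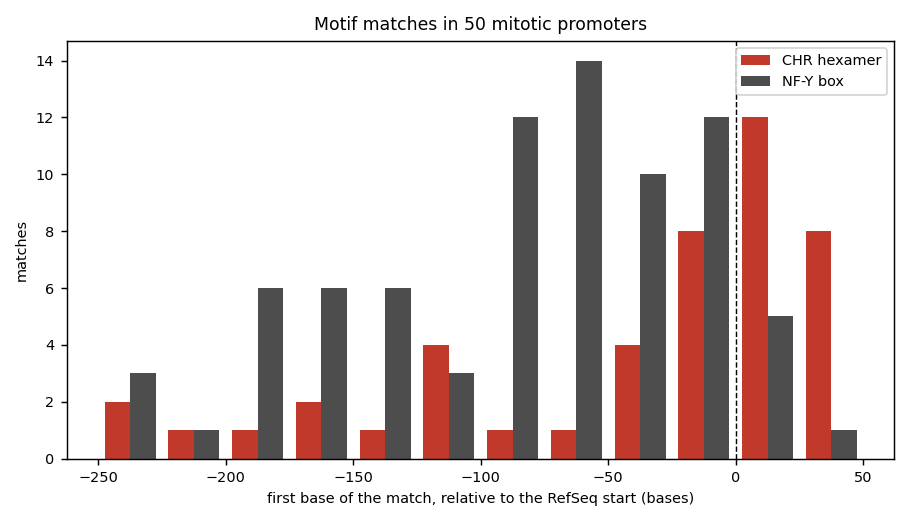
Distance of each motif match from the RefSeq start (x axis, bases) against the number of matches (y axis) in 50 mitotic promoters. The 45 CHR hexamers have their median first base at -15 and the 79 NF-Y boxes at -68.

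The mitotic genes rose with idelalisib. Of the 59, 48 were higher and 1 was lower when adjusted p had to be under 0.05 (quasi-likelihood test of edgeR over 14530 genes), which is 81.4% higher and 1.69% lower. Across all tested genes 22.2% were called higher and 22.4% lower. The members' median log2 fold change was 0.57, against 0.01 for all tested genes, and 9 members reached at least 1 on the log2 scale, a 2-fold rise. In 48 members every idelalisib library lay above every control library, and in 2 every one lay below, against 27.5% and 27.2% of all tested genes. Together the members took 0.892, 0.882 and 0.797% of all counts in the idelalisib libraries, against 0.543, 0.550 and 0.546% in the control libraries. Their summed level was 7632 to 8419 CPM (counts scaled to library size, adjusted with trimmed mean of M-values factors) with idelalisib, against 5702 to 5814 CPM in control.

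**Figure D2:**
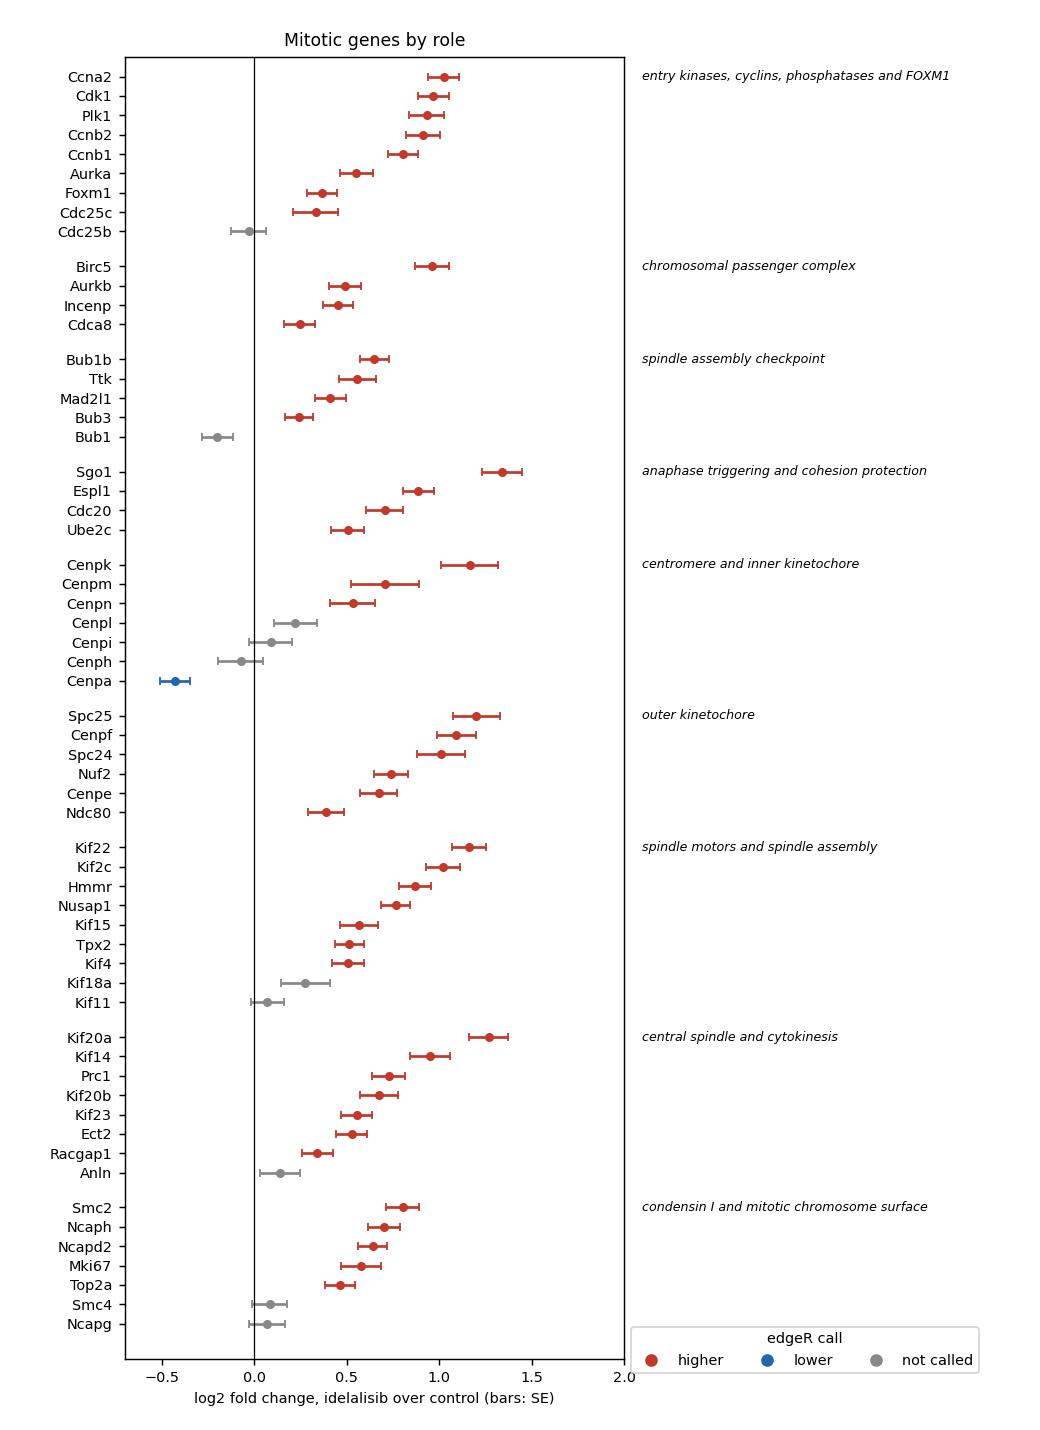
Log2 fold change of each of the 59 genes, idelalisib over control (x axis, points; bars are standard errors), ordered by role from top to bottom. Red points mark the 48 genes called higher, the blue point marks Cenpa and grey points mark the 10 genes that were not called.

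The libraries held 13372318 to 16035945 counts with idelalisib, against 14879325 to 16770452 in control, and the scarcest member had 97 counts in its lowest library. The CD4+ T cell markers bore out the label, with Cd4 at 5831 to 8359 counts with idelalisib and 7135 to 9210 in control, and 2 of 10 such markers were called higher and 1 lower (summed level 3496 to 3859 CPM with idelalisib and 3788 to 3880 CPM in control). Of 6 Th1 markers 1 was higher and 3 were lower (851.9 to 968.3 and 1107 to 1217 CPM). Some markers of other cells moved the same way as the mitotic genes. Of 7 tested B cell genes 6, or 85.7%, were higher, against 22.2% of all tested genes. The 10 listed summed to 15.5 to 19.2 CPM with idelalisib and 9.05 to 9.44 CPM in control. Ms4a1, Cr2 and Fcer2a, the rest of that list, were too scarce to be tested. They averaged 0.52, 0.16 and 0.49 CPM with idelalisib and 0.61, 0.21 and 0.64 CPM in control. Of the CD8 T cell markers 1 of 2 was higher (7.24 to 9.50 and 4.43 to 7.86 CPM). Of 2 tested NK cell markers Eomes was higher (log2 fold change 1.69) and Klre1 was not called (-0.27). The summed NK level was 8.69 to 12.7 and 4.44 to 6.34 CPM, with Ncr1 at 0 in every library. Klrb1c and Klra8 were too scarce to be tested. Of 3 tested granulocyte markers Ly6g and Cxcr2 were higher and Mmp9 was not called. Their list summed to 119.6 to 148.7 and 48.7 to 51.2 CPM, of which Ly6g made up 104.2 to 125.9 and 36.8 to 42.0 CPM. S100a8, S100a9, Elane and Mpo, the rest of that list, were too scarce to be tested. By edgeR 0 of 3 plasma cell, 0 of 2 dendritic cell and 0 of 2 erythroid genes were called (1, 1 and 0 of them at an unadjusted p under 0.05), and of the macrophage list the 1 tested gene, Cd68, was lower. Summed levels of these lists were 208.2 to 247.8 and 237.7 to 266.3 CPM for plasma cells (Tnfrsf17 at 0), 8.42 to 11.8 and 11.6 to 12.9 CPM for dendritic cells (Siglech at 0), 2.05 to 2.96 and 1.72 to 2.31 CPM for erythroid cells and 10.2 to 13.7 and 17.4 to 18.2 CPM for macrophages (C1qa and C1qc at 0), idelalisib first in each pair. The part of these cells in the result was not tested.

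Of the 9 genes that bring cells into mitosis, 8 rose and 1 was not called. Ccna2, which encodes cyclin A, the partner of CDK in S phase and G2, had 149.6, 143 and 151 CPM in the idelalisib libraries and 72.1, 77.9 and 68.1 CPM in the control libraries (log2 fold change 1.02, SE 0.08, adjusted p = 5.35e-07 by edgeR). Cdk1, the kinase that drives mitotic entry, had 91.4, 92.8 and 91.0 CPM with idelalisib and 43.9, 50 and 46.6 CPM in control (log2 fold change 0.97, SE 0.08). Its mitotic cyclin partner Ccnb1 had 141.7, 149.3 and 145 CPM with idelalisib and 77.8, 86.9 and 85.3 CPM in control (log2 fold change 0.80, SE 0.08). In all 3 genes the lowest idelalisib library was well above the highest control library. The second B-type cyclin, Ccnb2, and the Polo kinase Plk1 had log2 fold changes of 0.91 and 0.93. The spindle-pole kinase Aurka, at 0.55, and the transcription factor Foxm1, an activator of this gene programme, at 0.37, rose less.

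The 2 CDC25 phosphatase genes, whose products remove inhibitory phosphates from CDKs, gave the smallest values among the entry genes. Cdc25b had 111.1, 91.3 and 109.8 CPM with idelalisib and 113, 98.5 and 106.8 CPM in control, and the groups overlapped (log2 fold change -0.03, SE 0.09, adjusted p = 0.822 by edgeR). Its paralogue Cdc25c had a log2 fold change of 0.33 (SE 0.12, adjusted p = 0.0382 by edgeR), and that call was lost with DESeq2 (adjusted p = 0.0535) and without idelalisib replicate 1 or 3 or any one of the control libraries, with adjusted p up to 0.123.

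The chromosomal passenger complex, which corrects faulty attachments and later directs cytokinesis, rose in all 4 of its subunit genes. Birc5, which encodes survivin, had 60.1, 60.5 and 67.8 CPM with idelalisib and 33.3, 31.4 and 32.1 CPM in control (log2 fold change 0.96, SE 0.09, adjusted p = 2.12e-06 by edgeR). The kinase of the complex, Aurkb, had 130.9, 120.4 and 143 CPM with idelalisib and 93.1, 94.1 and 93.3 CPM in control (log2 fold change 0.49, SE 0.08). Neither gene overlapped between the groups. The scaffold Incenp rose by 0.45 and the borealin gene Cdca8 by 0.25. Cdca8 lost its call without idelalisib replicate 1 or control replicate 1 or 3 (adjusted p = 0.0586, 0.158 and 0.0663).

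Spindle assembly checkpoint genes, whose products delay anaphase until every kinetochore is attached, rose in 4 of 5 cases. Bub1b, which encodes BUBR1, a subunit of the mitotic checkpoint complex, had 156.8, 161.7 and 160.7 CPM with idelalisib and 106.8, 97.2 and 101.5 CPM in control (log2 fold change 0.65, SE 0.08, adjusted p = 1.79e-05 by edgeR). Ttk, which encodes the checkpoint kinase MPS1, had 45.4, 42.8 and 39.8 CPM with idelalisib and 29.3, 31.1 and 26.4 CPM in control (log2 fold change 0.56, SE 0.10). Both genes were higher in every idelalisib library than in any control library. Mad2l1, the MAD2 gene, rose by 0.41, and Bub3 rose by 0.24, a call that was lost without any one of the control libraries (adjusted p up to 0.0890).

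Bub1, the kinase that marks centromeric chromatin and recruits other checkpoint proteins, stood apart from its partners. It had 102.2, 102 and 91.6 CPM with idelalisib and 119, 112 and 108 CPM in control, so that every idelalisib library was below every control library. Its log2 fold change of -0.20 (SE 0.08) did not pass the test (adjusted p = 0.0634 by edgeR). It passed without idelalisib replicate 2 (log2 fold change -0.22, adjusted p = 0.0312) and when protein-coding genes were tested alone (0.0416), and its adjusted p reached 0.686 over the other settings, at -0.05 when scaled by library size alone.

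All 4 genes of anaphase triggering and cohesion protection rose. Sgo1, which encodes shugoshin, the protector of centromeric cohesin (ENSMUSG00000023940, mm10 chromosome 17, 53674786 to 53689333), had 41.8, 43.4 and 38.3 CPM with idelalisib and 16.4, 17.4 and 14.9 CPM in control. With a log2 fold change of 1.34 (SE 0.11, adjusted p = 5.30e-07 by edgeR), or 2.53-fold, it had the largest rise of the 59 genes. Espl1, the gene for separase, the protease that cleaves cohesin, had 133, 119.1 and 130.6 CPM with idelalisib and 71.6, 65.7 and 69.7 CPM in control (log2 fold change 0.89, SE 0.08). The groups did not overlap in either gene. Cdc20, the activator of the anaphase-promoting complex (APC/C), rose by 0.71, and Ube2c, the ubiquitin-conjugating enzyme that serves it, rose by 0.51.

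The centromere and inner kinetochore genes were the most divided group, with 3 of 7 higher, 1 lower and 3 not called. Cenpa, which encodes the histone H3 variant that marks centromeres (ENSMUSG00000029177, mm10 chromosome 5, 30666777 to 30674830), was the gene called lower. It had 212.8, 198 and 219.7 CPM with idelalisib and 266.5, 302.1 and 280.8 CPM in control (log2 fold change -0.43, SE 0.08, adjusted p = 0.000705 by edgeR). The groups did not overlap, and the adjusted p stayed at 0.0111 or lower in the 16 refits with another scaling, tool, filter, gene set, block or library left out, where the log2 fold change lay between -0.48 and -0.27. Hjurp, the chaperone that deposits CENP-A and belongs to a separate list of centromere genes, also fell. It had 495.7, 372.7 and 438.5 CPM with idelalisib and 601.7, 583.9 and 554 CPM in control (log2 fold change -0.41, SE 0.10, adjusted p = 0.00339 by edgeR). Oip5, which encodes a subunit of the MIS18 complex that licenses this deposition, went the other way, at 15.9, 19.2 and 18.9 CPM with idelalisib and 8.01, 6.74 and 8.36 CPM in control (log2 fold change 1.22, SE 0.15, adjusted p = 1.91e-05 by edgeR).

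The other inner kinetochore genes encode subunits of the constitutive centromere-associated network, which links centromeric chromatin to the microtubule-binding outer layer. Cenpk had 15.9, 17 and 14.4 CPM with idelalisib and 6.07, 7.93 and 7.08 CPM in control (log2 fold change 1.17, SE 0.15, adjusted p = 4.13e-05 by edgeR). Cenpm had 17.4, 12.3 and 20.5 CPM with idelalisib and 9.51, 12.1 and 9.22 CPM in control (log2 fold change 0.71, SE 0.18), and its lowest idelalisib library barely cleared the highest control library. Cenpn rose by 0.53. Cenph, at 21.1, 23.6 and 21.3 CPM with idelalisib and 20.6, 26.2 and 22.5 CPM in control, was not called (log2 fold change -0.07, SE 0.12, adjusted p = 0.651 by edgeR). Cenpi, at 27.9, 32.4 and 27.6 CPM with idelalisib and 29.5, 23.9 and 29.0 CPM in control (0.09, SE 0.12), and Cenpl, at 30.3, 37.0 and 31.1 CPM with idelalisib and 25.3, 28.5 and 30.5 CPM in control (0.22, SE 0.11), were not called either. In these last 3 genes the groups overlapped. Cenph and Cenpk belong to one subcomplex, together with Cenpi and Cenpm, and whether their fold changes differ was not tested.

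**Figure D3:**
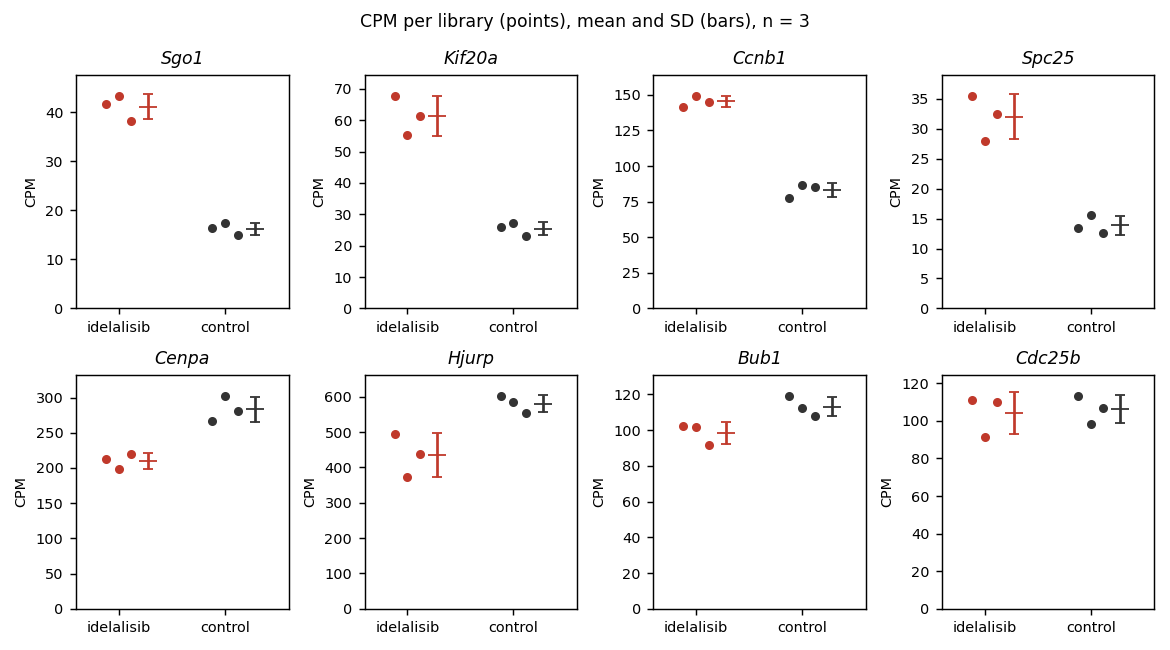
CPM in each library (points), with the mean and standard deviation beside them (bars), for 8 genes, idelalisib to the left of control in each panel. Sgo1, Kif20a, Ccnb1 and Spc25 lie higher with idelalisib, Cenpa, Hjurp and Bub1 lie lower in every idelalisib library, and Cdc25b overlaps.

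The outer kinetochore rose in all 6 genes. It holds the NDC80 complex, the main microtubule coupler of the kinetochore, and the large corona proteins CENP-E and CENP-F. Spc25, a subunit of NDC80, had 35.5, 28 and 32.5 CPM with idelalisib and 13.4, 15.7 and 12.6 CPM in control (log2 fold change 1.20, SE 0.13, adjusted p = 7.08e-06 by edgeR). Cenpf had 172, 146.6 and 127 CPM with idelalisib and 66.1, 72.5 and 70.6 CPM in control (log2 fold change 1.09, SE 0.10). In both, the groups were far apart. Of the other NDC80 subunits, Spc24 rose by 1.01, Nuf2 by 0.74 and Ndc80 itself by 0.39, and the kinetochore kinesin Cenpe rose by 0.67.

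Among 9 genes of spindle motors and spindle assembly 7 rose. Kif22, the chromokinesin that pushes chromosome arms towards the spindle equator, had 80.2, 76.5 and 82.9 CPM with idelalisib and 38.7, 32.9 and 35.6 CPM in control (log2 fold change 1.16, SE 0.09, adjusted p = 4.01e-07 by edgeR). Kif2c, which encodes the microtubule depolymerase MCAK, had 65.7, 61.6 and 58.7 CPM with idelalisib and 32.4, 29.8 and 29.4 CPM in control (log2 fold change 1.02, SE 0.09). The groups did not overlap in either. The spindle assembly factors Hmmr, Nusap1 and Tpx2 rose by 0.87, 0.77 and 0.51, the kinesin Kif15, which helps keep the spindle bipolar, by 0.57, and the chromokinesin Kif4 by 0.51.

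Kif11, the kinesin that drives the spindle poles apart, was not called. It had 249.8, 286.1 and 236.4 CPM with idelalisib and 232.5, 239.9 and 262.7 CPM in control (log2 fold change 0.07, SE 0.09, adjusted p = 0.541 by edgeR). Kif18a, which dampens chromosome movements, had 27.5, 31.2 and 22.4 CPM with idelalisib and 23.1, 20.1 and 23.7 CPM in control (log2 fold change 0.28, SE 0.13, adjusted p = 0.101 by edgeR). The groups overlapped in both, and Kif18a passed the test without idelalisib replicate 3 (log2 fold change 0.41, adjusted p = 0.0150 by edgeR). Its fold change shrank without idelalisib replicate 2 (0.17, adjusted p = 0.271) or control replicate 2 (0.20, adjusted p = 0.312).

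Of 8 genes of the central spindle and cytokinesis, 7 rose. Kif20a, the kinesin that carries the passenger complex to the central spindle, had 67.8, 55.2 and 61.3 CPM with idelalisib and 26.0, 27.2 and 23.2 CPM in control (log2 fold change 1.27, SE 0.10, adjusted p = 6.59e-07 by edgeR). Kif14, a kinesin of the midbody, had 77.9, 65.9 and 57.5 CPM with idelalisib and 35.4, 34.8 and 33.9 CPM in control (log2 fold change 0.95, SE 0.11). The groups did not overlap in either. The microtubule bundler Prc1 rose by 0.73, Kif20b by 0.68, Kif23 and Racgap1, the 2 components of centralspindlin, by 0.55 and 0.34, and Ect2, the exchange factor that centralspindlin recruits to activate RhoA, by 0.53. Anln, which encodes the contractile-ring scaffold anillin, had 61.2, 44.5 and 49.6 CPM with idelalisib and 48.4, 47.5 and 45.2 CPM in control and was not called (log2 fold change 0.14, SE 0.11, adjusted p = 0.324 by edgeR). Idelalisib replicate 2 lay below all 3 control libraries and the other idelalisib libraries above them, and without it the log2 fold change was 0.24 (adjusted p = 0.0435 by edgeR), while without idelalisib replicate 1 it was 0.02 (adjusted p = 0.918).

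Condensin I, the ring complex that compacts mitotic chromosomes, was split. Its subunit Smc2 had 217.8, 230 and 186.8 CPM with idelalisib and 118.9, 123.5 and 121.2 CPM in control (log2 fold change 0.80, SE 0.09, adjusted p = 8.17e-06 by edgeR). Ncaph had 107.6, 113.5 and 95.3 CPM with idelalisib and 64.5, 65.1 and 64.8 CPM in control (log2 fold change 0.70, SE 0.09), and Ncapd2 rose by 0.64. Smc4, the partner of Smc2 in the ring, was not called: it had 381.5, 411.6 and 316.7 CPM with idelalisib and 346.4, 350.2 and 351.3 CPM in control (log2 fold change 0.08, SE 0.09, adjusted p = 0.495 by edgeR). Ncapg, at 106.5, 117 and 91.0 CPM with idelalisib and 96.9, 105.6 and 97.9 CPM in control, was not called either (0.07, SE 0.10). In both of these genes idelalisib replicate 3 lay below all 3 control libraries and idelalisib replicate 2 lay above them. The value of Smc4 turned on these libraries: it was called higher without idelalisib replicate 3 (log2 fold change 0.20, adjusted p = 0.0290 by edgeR) and was near 0 without idelalisib replicate 2 (0.0068, adjusted p = 0.951).

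The most abundant transcripts were those of the mitotic chromosome itself. Top2a, which encodes the topoisomerase that untangles sister chromatids, had 1113, 1168 and 985 CPM with idelalisib and 765.6, 787 and 812.6 CPM in control (log2 fold change 0.47, SE 0.08, adjusted p = 0.000434 by edgeR). Mki67, the proliferation marker that coats mitotic chromosomes, had 1012, 1126 and 782.8 CPM with idelalisib and 638.3, 657.2 and 662.7 CPM in control (log2 fold change 0.58, SE 0.11, adjusted p = 0.000863 by edgeR). The groups were apart in both, and in both idelalisib replicate 3 was the lowest of its group. Expressed per kilobase of gene length (RPKM), the level of Top2a was 120.8 ± 10.4 with idelalisib and 87.5 ± 2.61 in control (SD, n = 3 each), ahead of Mki67 at 96.8 ± 17.4 and 64.9 ± 1.27. Kif18a had the lowest level on that scale with idelalisib, at 2.75 ± 0.451 and 2.27 ± 0.196 RPKM in control, and Cenpk the lowest in control, at 3.02 ± 0.250 with idelalisib and 1.34 ± 0.178 RPKM in control.

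**Figure D4:**
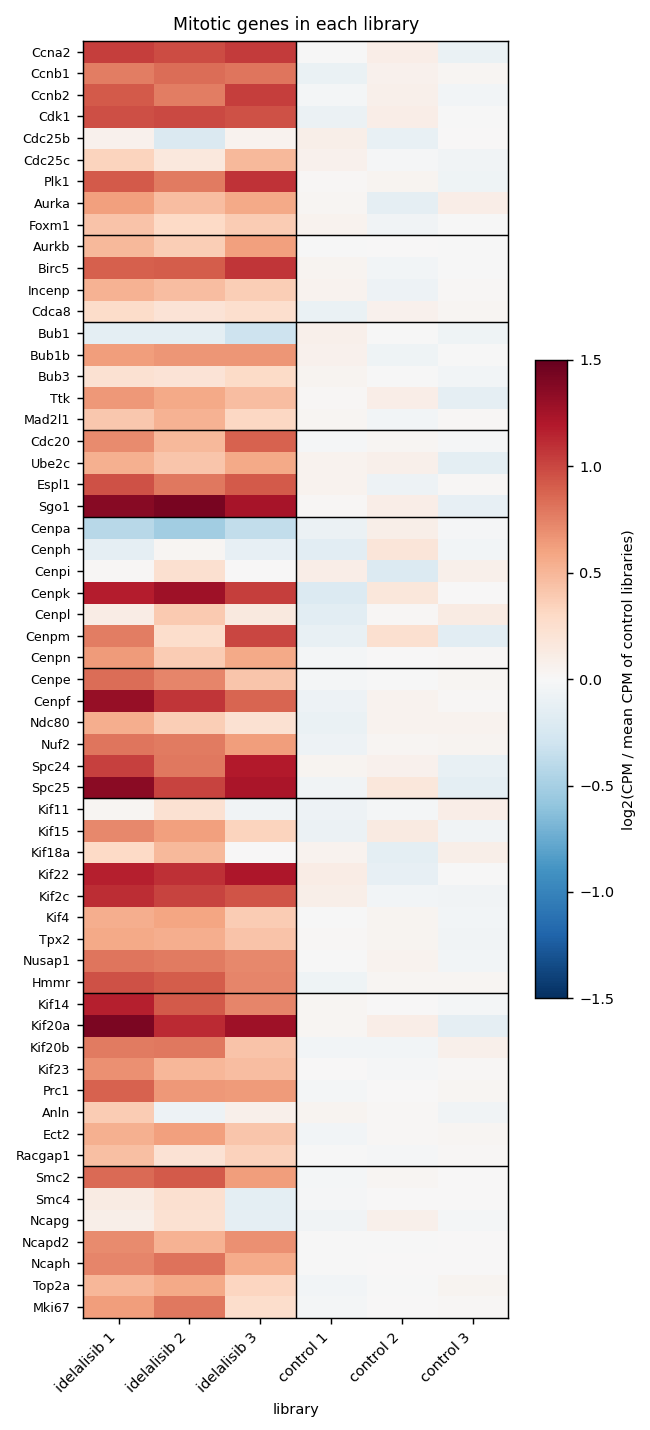
Log2 ratio of each gene's CPM in each library (columns) to the mean CPM of the control libraries (colour, red higher and blue lower), genes grouped by role between black lines. The 3 idelalisib libraries on the left are red for most genes and differ among themselves more than the 3 control libraries on the right.

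The members spread more widely between idelalisib libraries than between control libraries. The ratio of the highest to the lowest library had a median of 1.18 and reached 1.67 with idelalisib, against a median of 1.09 and a maximum of 1.31 in control. This was not particular to the members. Over the whole table, chi-square per degree of freedom, which grows as 2 libraries differ, was larger between idelalisib libraries. It was 8.97, 11.3 and 18.2 for pairs of idelalisib libraries and 4.63, 4.81 and 5.55 for pairs of control libraries. Idelalisib replicate 3 was the lowest of its group for 31 members, idelalisib replicate 2 for 23 and idelalisib replicate 1 for 5. Which of them was lowest went with gene length as the deposited table gives it. The difference between idelalisib replicate 3 and the mean of the other 2 idelalisib libraries had a Spearman correlation with length of -0.667 across the 59 members and of -0.200 across 14530 tested genes. The same quantity for control replicate 3 correlated at 0.438 across members and 0.0248 across all genes. These correlations run across genes of the same few libraries and are descriptions. Mki67, 10061 bases long, was lower in idelalisib replicate 3 by a log2 difference of -0.45, and Cenpe, 8620 bases long, by -0.37. Cdc20, 1868 bases long, was higher there by 0.28, and Cenpm, 1617 bases long, by 0.48. Other members went against this: Espl1, 8749 bases long, was at 0.05 and Incenp, 3217 bases long, at -0.12. Of the 29 members longer than the median of 5177 bases, 23 were lower in idelalisib replicate 3, as were 12 of the 30 others.

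The difference between the groups followed length less closely. Its correlation with length was -0.164 across members and 0.0459 across all tested genes. Of the 29 members longer than the median of 5177 bases, 22 were called higher and 1 lower, with a median log2 fold change of 0.53. Of the 30 others 26 were called higher, with a median of 0.70. The part of length in the results was not tested.

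**Figure D5:**
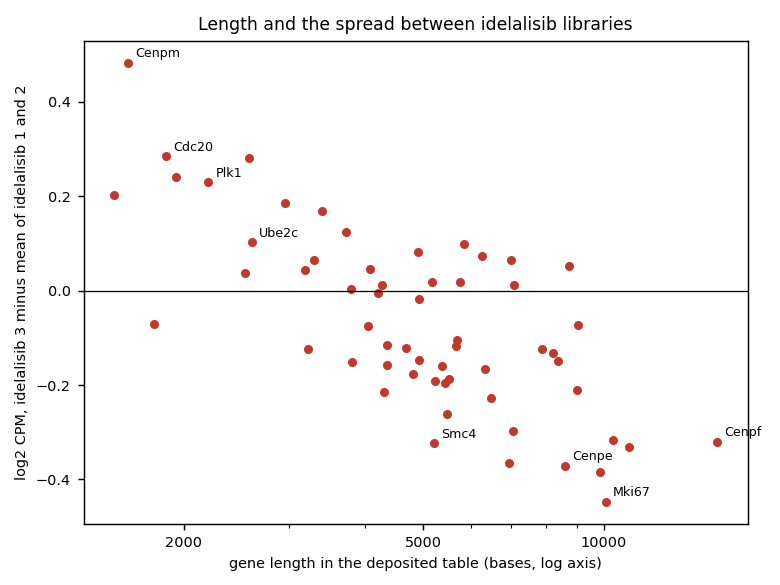
Gene length (x axis, bases, log scale) against the log2 CPM of idelalisib replicate 3 minus the mean of idelalisib replicates 1 and 2 (y axis), 1 point for each of the 59 genes. Of the 29 genes longer than the median of 5177 bases, 23 lie below 0, Mki67 among them. Of the 30 others 12 lie below 0, while Cdc20 and Cenpm lie above it.

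Most other genes of mitosis rose as well. In a separate list of 55 mitotic genes, none of them among the 59, 43 were called higher and 2 lower, with a median log2 fold change of 0.51. That is 78.2% and 3.64%, against 22.2% and 22.4% of all tested genes. This list, like the others here, was chosen with earlier results of these data known. Its largest rises were in the mitotic kinase Pbk, at 31.4 ± 0.546 CPM with idelalisib and 11.4 ± 0.894 CPM in control (SD, n = 3 each; log2 fold change 1.47), and in Pimreg, at 1.40. The genes that fell were Cit, which encodes citron kinase of the cleavage furrow, at -0.46 (SE 0.09, adjusted p = 0.000720 by edgeR), and the microtubule regulator Psrc1, at -0.28 (SE 0.11, adjusted p = 0.0494 by edgeR). The number called lower was 3 without idelalisib replicate 3 and 1 without any other single library. All 3 genes listed under condensin II rose, Ncapg2 by 0.78 and Ncapd3 by 0.45 among them. Of the 3, 2 rose when any single library other than idelalisib replicate 2 was left out. Smc2 and Smc4 were counted with condensin I and are not in this list. Of 20 other centromere and kinetochore genes 13 rose and 1, Hjurp, fell, with a median of 0.42, and the count of rises was 8 without control replicate 1 and 9 to 15 without any other single library. The rises included Cenpc1, the centromere-binding platform of the inner kinetochore, at 0.74.

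The APC/C and cohesin lists had medians nearer that of all genes, and their counts depended on single libraries. Of 16 genes of the APC/C and its regulators 5 were higher and 4 lower, with a median log2 fold change of 0.12. The number called higher was 3 without idelalisib replicate 1, control replicate 1 or control replicate 2, and 4 to 6 otherwise, and the number called lower was 4 to 6. Fbxo5, which encodes the APC/C inhibitor EMI1, rose by 1.12. The subunit genes went both ways. Cdc23, Anapc15, Anapc11 and Anapc5 rose, by 0.53, 0.53, 0.52 and 0.23, and Anapc16, Cdc16, Cdc27 and Anapc2 fell, at -0.71, -0.59, -0.50 and -0.39. Of 13 cohesin genes 2 were higher and 2 lower, or 15.4% each against 22.2% and 22.4% of all tested genes, with a median of 0.09. Cdca5, the gene for sororin, and the cohesin acetyltransferase gene Esco2 rose by 0.77 and 0.58. The loader Nipbl and the ring subunit Smc3 fell, at -0.55 and -0.24. In cohesin 5 were called higher without idelalisib replicate 3 and 2 without any other library, and 3 were called lower without idelalisib replicate 2 and 1 without any other library. Genes of DNA replication, the step before mitosis, were called higher in 41 of 48 cases, or 85.4%, against 22.2% of all tested genes. Their median log2 fold change was 0.63. Rrm2, the ribonucleotide reductase subunit, rose by 1.62 and the licensing factor Cdc6 by 1.24. Their summed level was 4692 to 4826 CPM with idelalisib, against 3034 to 3067 CPM in control. Whether the mitotic and replication genes differ from each other was not tested.

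Some members share sequence with other genes, and since the counting options are not given, their reads may be mixed. Of the 50-base words of the longest transcript, 42.1% of those of Ccnb1 occur in other genes, mainly pseudogenes such as Ccnb1-ps, 31.2% of those of Kif20a in Cdc23 on the opposite strand, 26.6% of those of Prc1 mainly in Rccd1, 18.5% of those of Ncapg in Lcorl, 17.8% of those of Ube2c in Tnnc2 and others, 16.2% of those of Kif4 in Pdzd11 and Kif4-ps, and 15.9% of those of Ccna2 in Exosc9. The share was 11.6% for Cdc20, with Gm7856, Elovl1 and others, and 10.9% for Plk1, with Plk-ps1 and Gm44985. It was lower in the other members. Of all these partners Cdc23 had a log2 fold change of 0.53, Rccd1 and Pdzd11 of 0.29, Exosc9 of 0.12 and Lcorl of -0.48. Elovl1 was at 0.40 and the scarce Gm44985, with 54 counts over the libraries, at 1.21. Cenpk overlaps Ppwd1, which had 2634 counts over the 6 libraries beside 1039 for Cenpk and a log2 fold change of 0.04.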

How the data were processed

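Poly(A) RNA of 6 libraries, 3 with idelalisib and 3 control, was sequenced, and the sample titles gave each library its group and number. The deposited values are raw read counts per gene, with gene length in bases and other annotation in the same table. Fastp, HISAT2 2.0.5, featureCounts 1.5.0-p3 and the build mm10 are named in the submitters' processing notes; they give no annotation release, strand setting or rule for multiply mapping reads.

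Genes were filtered with filterByExpr (minimum count 10, minimum total 15), scaled with TMM factors and tested with the quasi-likelihood F test of edgeR 4.0.16 in R 4.3.3 with group as the only term, over 14530 genes with Benjamini-Hochberg adjustment. The method was run on simulated data in which few genes changed, in about equal parts up and down. Here 44.6% of tested genes were called, so that run does not cover a change of this breadth. Each standard error was derived from a gene's fold change and F value. CPM uses TMM-scaled library sizes, and 1 CPM rested on 14.0 to 16.7 reads. DESeq2 1.42.0, limma-voom (limma 3.58.1), other scalings and filters, a replicate block and leaving out each library were alternatives. Same-numbered libraries did not deviate together (correlations 0.0764, -0.133 and -0.101), so they were not treated as pairs. With so few libraries this cannot settle whether they shared a mouse, which the labels do not say. No 2 libraries of a group were duplicates (chi-square per degree of freedom 8.97 to 18.2 with idelalisib and 4.63 to 5.55 in control).

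The members and gene lists were chosen with earlier results of these data known. Values per library are given for the 2 called members with the largest change in each role, the members called lower or not called, and Mki67, Top2a, Ccnb1 and Cdk1. From other lists the 2 called genes with the largest change that average at least 1 CPM and those called against the majority are named. In the APC/C list every called gene is named. Of several RefSeq starts, the one nearest the deposited gene start was used, up to 100000 bases away. It lay 3867 bases away for Kif2c, 2394 for Cdca8 and 1505 for Kif14, and each of these windows held TTTGAA. Motifs TTTGAA and CCAAT were searched on both strands. The level of 1 marker gene is not reported here.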

Additional observations from a re-analysis of the deposited data

How the results depend on the processing

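Of the 48 members called higher, 45 kept that call in all 16 refits with another scaling, tool, filter, gene set, block or library left out; Cdc25c, Cdca8 and Bub3 did not. The count of members called higher ranged from 45 to 49 with 1 library left out, and of those called lower from 1 to 2, the second being Bub1 without idelalisib replicate 2. Over all genes these refits called 2472 to 3599 higher and 2617 to 3581 lower. With protein-coding genes alone 2 members were lower. With a log2 fold change of at least 1 required, 9 members were higher and 0 lower, and 838 and 866 of all genes, because the rule removes smaller changes. An adjusted p under 0.01 left 2138 genes higher and 45 members. With DESeq2 47 members were higher and with limma-voom 48. A replicate block gave 46 members higher and 1 lower, and 2910 and 3051 genes. It took Cdc25c and Cdca8 out of the calls. Whether the replicate numbers pair the samples is not stated in the labels. Scaling by library size alone put the all-gene median at 0.16 on the log2 scale, against 0.01, gave 68.5% of all calls on the higher side against 49.7%, and called 53 members higher and 1 lower; Kif11, Smc4, Anln, Kif18a and Cenpl gained a call there.

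Directions turned only in members that were not called. Cdc25b had 0.0086 with upper-quartile scaling and 0.13 with library size alone, and Cenph 0.082 with library size alone. With 1 library left out, Cdc25b ranged from -0.084 to 0.064, Cenph from -0.15 to 0.023, Cenpi from -0.0044 to 0.14, Kif11 from -0.0036 to 0.14 and Ncapg from -0.012 to 0.17. The cause of these turns was not tested.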

Other observations

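The tubulins and the gamma-tubulin ring, the building blocks and nucleator of the spindle, were mixed. Of 19 genes 7 were called higher and 2 lower (edgeR, adjusted p under 0.05), or 36.8% and 10.5%. The shares over all tested genes were 22.2% and 22.4%. Tubb4b had 192.1 ± 12.4 CPM with idelalisib and 94.2 ± 7.16 CPM in control (SD, n = 3 each; log2 fold change 1.03, SE 0.09). Other beta-tubulin genes went the other way, Tubb6 at 33.7 ± 3.22 CPM with idelalisib and 76.7 ± 6.26 CPM in control (log2 fold change -1.18, SE 0.10) and Tubb2b at 38.5 ± 5.81 CPM with idelalisib and 67.2 ± 8.22 CPM in control (log2 fold change -0.80, SE 0.12).

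Among 22 genes of DREAM, MuvB and the cell cycle transcription factors 10 were higher and 4 lower, with a median log2 fold change of 0.25. That is 45.5% higher and 18.2% lower, against 22.2% and 22.4% of all tested genes, so the share of falls was near that of all genes. The repressive E2F family members E2f8 and E2f7 rose by 1.64 and 1.58. The retinoblastoma gene Rb1 fell to 111.8 ± 10.4 CPM with idelalisib, against 165.1 ± 10.9 CPM in control (log2 fold change -0.56, SE 0.09, adjusted p = 0.000192 by edgeR). The NF-Y subunit gene Nfyb and the CHR-binding MuvB subunit gene Lin54 fell as well, at -0.47 and -0.46, and E2f2 was at -0.22 (adjusted p = 0.0482 by edgeR).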
